A study of Mus musculus with 9 samples.

Results

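The slit diaphragm is the junction that bridges neighbouring foot processes of podocytes, the epithelial cells of the kidney's filtration barrier. Its expression was followed through 9 genes, chosen with earlier results of these data known: the adhesion proteins Nphs1, Kirrel, Kirrel2 and Fat1, the adaptor and scaffold proteins Cd2ap, Magi2 and Tjp1, and the apical membrane proteins Ptpro and Podxl. A probe set was taken when its platform gene symbol was exactly one of these names. This gave 12 probe sets for 7 of the 9 genes, among 45037 probe sets and 18193 genes in all. No probe set carried the symbol Kirrel2 or Magi2, and these genes were not analysed here.

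The arrays came from 5 OVE26 mice and 4 FVB mice aged 3 to 4 months, with 1 array per mouse. OVE26 is a transgenic strain on the FVB background that develops type 1 diabetes early in life, through a calmodulin transgene expressed in pancreatic beta cells. The labels give the diabetic animals as genotype OVE-GFP and the normal animals as wild type. The cross brought in an eGFP transgene active in podocytes, and its promoter is not given in the labels. All samples were described as fluorescent podocytes sorted from trypsin-treated glomeruli, and the labels do not say whether the normal mice carried the same eGFP transgene. Every level below is a probe set's log2 intensity, and every difference is the OVE26 mean less the FVB mean. Intensities of different probe sets are not compared, since each has its own affinity.

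At the slit, nephrin (Nphs1) and the Neph proteins (Kirrel and its relatives) reach across the gap with immunoglobulin domains and bind each other. Their cytoplasmic tails are phosphorylated by Fyn and recruit adaptors, and Cd2ap, Magi2 and the ZO-1 protein encoded by Tjp1 join them to actin and to the cell's polarity machinery. Loss of nephrin in people causes a congenital nephrotic syndrome, and reduced nephrin has been described in diabetic kidney disease.

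Nphs1 and Kirrel, the pair with the largest differences when each gene is read by its brightest probe set, are shown by the 250 bases upstream of their start sites, from RefSeq on build GRCm38.p6. Capitals mark a match to GNGTGGGNG, the core read by the zinc fingers of Wt1 and the Egr factors. Nphs1 lies at chr7:30459808-30460057 on the plus strand and Kirrel at chr3:87174538-87174787 on the minus strand.
Nphs1: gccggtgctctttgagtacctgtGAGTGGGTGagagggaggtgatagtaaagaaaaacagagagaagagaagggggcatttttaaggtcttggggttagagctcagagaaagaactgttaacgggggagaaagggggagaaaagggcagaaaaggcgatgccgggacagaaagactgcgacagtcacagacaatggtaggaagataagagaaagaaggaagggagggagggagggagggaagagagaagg
Kirrel: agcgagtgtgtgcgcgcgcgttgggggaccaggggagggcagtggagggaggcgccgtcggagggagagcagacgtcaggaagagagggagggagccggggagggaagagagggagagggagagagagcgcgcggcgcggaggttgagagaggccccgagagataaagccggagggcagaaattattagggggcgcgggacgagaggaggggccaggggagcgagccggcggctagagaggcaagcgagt

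These windows come from the C57BL/6J genome, not from FVB. Of the 9 genes, 8 had a window and Magi2 had a pair of them, while Podxl was not listed. Searched on both strands, GNGTGGGNG occurred in 6 of the 9 windows (those of Nphs1, Kirrel2, Cd2ap, Tjp1, Fat1 and 1 of Magi2) and in 12.7% of 32851 windows of the same length. The E-box CANNTG occurred in 6 of the 9 windows and in 66.2% of all, but not in those of Nphs1 or Kirrel. The homeobox core TAATTA occurred in 1 of the 9 (Magi2) and in 4.84% of all. The forkhead motif GTAAACA (3.17% of all) occurred in 0 of them. The Kirrel window held none of the 4 motifs. A match is a run of letters and was not tested as a binding site.

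None of the 7 measured genes differed between diabetic and normal podocytes at an adjusted p under 0.05 by limma, where 0.605% of all genes did and 0.132% were called lower. All 7 had a mean below that of FVB with the values as deposited, although 5 of the 7 lay above 0 once arrays were centred on podocyte markers, 3 of the 7 with a podocyte score as a covariate and 1 of the 7 with a macrophage score as a covariate. Of all genes tested, 47.4% had a difference below 0. Differences of the 7 genes ran from -0.56 for Kirrel to -0.11 for Podxl, with a median of -0.21, beside a median of 0.01 and a middle range of -0.13 to 0.17 over all genes. Bright genes as a class lay slightly below 0. The 1820 genes at or above the 90th percentile of mean intensity had a median of -0.04, and 6 of the 7 genes were among them. At an unadjusted p under 0.05, 2 of the 7 genes were lower (Nphs1 and Kirrel), against 6.07% of all genes. Counted by probe set, 0 of the 12 passed (limma, 0.271% of all probe sets passed), 5 of the 12 were lower at an unadjusted p under 0.05 (7.14% of all), and all 12 differences were below 0 (51.1% of all). These counts at an unadjusted p moved when 1 array was left out. The 2 genes became 1 without FVB 3, 3 without OVE26 1 and 4 without OVE26 2, and the 5 probe sets became 1 without FVB 3, 2 without OVE26 3 or without OVE26 5, and 7 without OVE26 1. With other settings for all 9 arrays the 2 genes became 5 with an intensity trend and robust variance, 4 with the mean of probe sets and 3 with array weights. The count was 1 with a podocyte or a macrophage score as a covariate (Kirrel in both), and 0 when centred on podocyte markers. With a loop, distal and duct score it was also 1, but that gene was Cd2ap (limma unadjusted p = 0.0372). Neither Nphs1 nor Kirrel remained with that score. Of all 18193 genes, 2748 had an unadjusted limma p under 0.05 as deposited, in either direction. In the trend, mean, weights and centred fits these were 2831, 2826, 3240 and 6790.

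**Figure D1:**
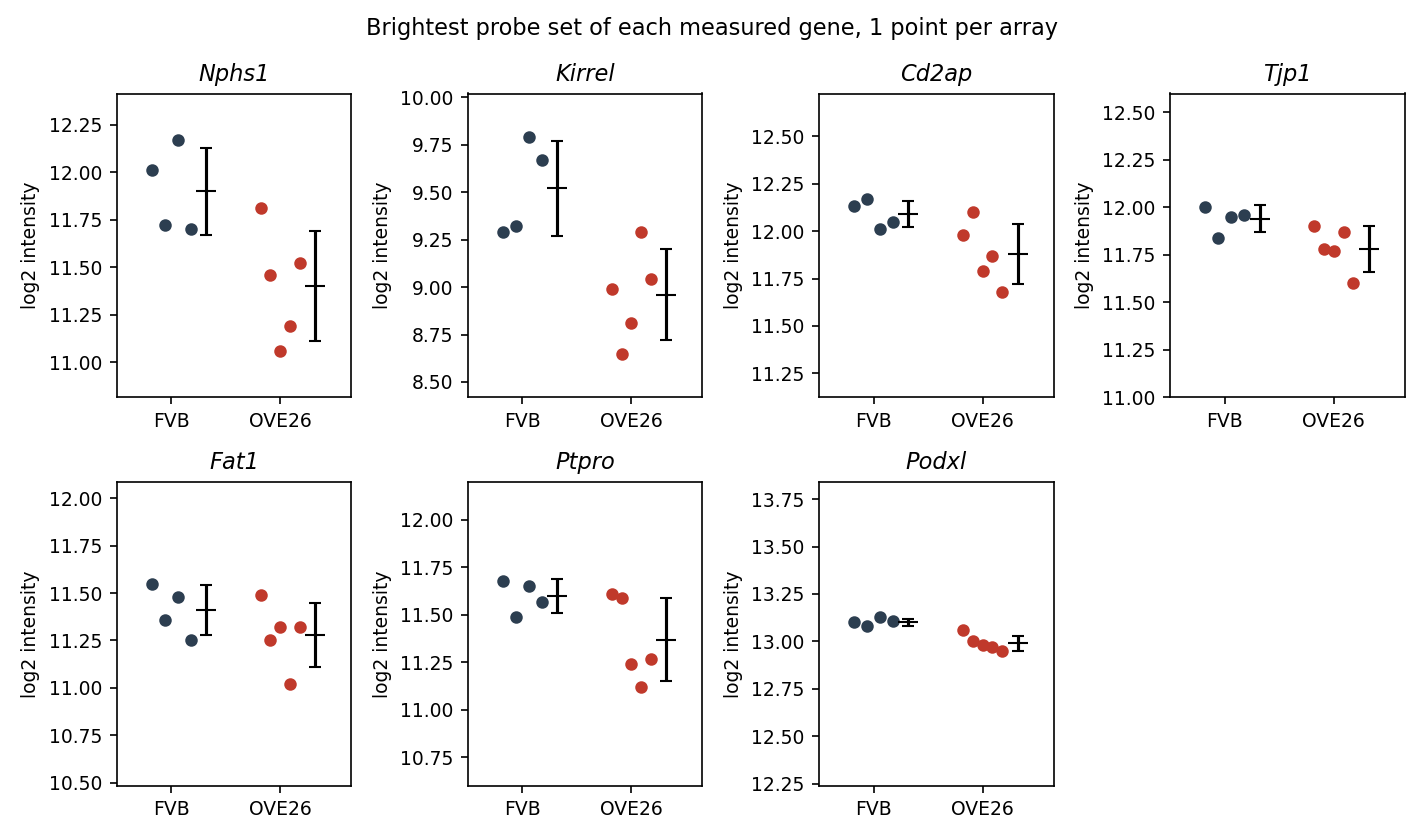
Log2 intensity (vertical axis, each panel spanning 1.6 units) of the brightest probe set of each gene in the 4 FVB and 5 OVE26 arrays, 1 point per array, with bars for the mean and SD. Nphs1 and Kirrel show the widest gap between group means, while Podxl shows a small gap with little spread.

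Nephrin is the adhesion protein that defines the slit. Its single probe set read 11.81, 11.46, 11.06, 11.19 and 11.52 in OVE26 arrays 1 to 5, and 12.01, 11.72, 12.17 and 11.70 in FVB arrays 1 to 4. The groups overlapped, because OVE26 1 lay above FVB 2 and FVB 4, whereas the other 4 OVE26 arrays lay below every FVB array. Means were 11.40 ± 0.29 (SD, n = 5) and 11.90 ± 0.23 (SD, n = 4), a difference of -0.50 (SE 0.17, 95% interval -0.87 to -0.12, limma adjusted p = 0.205). The OVE26 level was thus 0.709 of the FVB level, and 3.86% of all genes had a more negative difference. The 95% intervals here and below are per gene and carry no correction for the number of genes. An antisense gene at this locus, Nphs1os, named after its values were seen, had OVE26 arrays at 4.79 ± 0.31 (SD, n = 5) and FVB arrays at 5.30 ± 0.58 (SD, n = 4) (limma adjusted p = 0.402).

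Kirrel encodes Neph1, the binding partner of nephrin across the slit. Its brighter probe set read 8.99, 8.65, 8.81, 9.29 and 9.04 in OVE26 arrays 1 to 5, against 9.29, 9.32, 9.79 and 9.67 in FVB arrays 1 to 4. The groups met at OVE26 4 and FVB 1, and the other 4 OVE26 arrays lay below every FVB array. Means were 8.96 ± 0.24 (SD, n = 5) and 9.52 ± 0.25 (SD, n = 4), a difference of -0.56 (SE 0.16, 95% interval -0.92 to -0.20, limma adjusted p = 0.139), or 0.678 of the FVB level. Only 2.70% of all genes had a more negative difference, and this was the lowest adjusted p among the 7 genes. The dimmer probe set had a difference of -0.35 with a wider interval of -0.96 to 0.26 (limma over all probe sets, adjusted p = 0.635). Its arrays overlapped, with OVE26 at 5.98 ± 0.42 (SD, n = 5) and FVB at 6.33 ± 0.51 (SD, n = 4).

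Fat1 is a giant protocadherin of the slit that recruits Ena/VASP proteins to actin. It read 11.49, 11.25, 11.32, 11.02 and 11.32 in OVE26 arrays 1 to 5 and 11.55, 11.36, 11.48 and 11.25 in FVB arrays 1 to 4. The groups overlapped over most of their range. The difference was -0.13 (SE 0.12, 95% interval -0.39 to 0.13, limma adjusted p = 0.673).

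Cd2ap couples nephrin to actin and to endocytosis, and loss of the gene in mice leads to a nephrotic syndrome. The brightest of its 3 probe sets read 11.98, 12.10, 11.79, 11.87 and 11.68 in OVE26 arrays 1 to 5 and 12.13, 12.17, 12.01 and 12.05 in FVB arrays 1 to 4. OVE26 2 lay among the FVB arrays and the other 4 lay below them. The difference was -0.21 (SE 0.11, 95% interval -0.45 to 0.03, limma adjusted p = 0.410). The other probe sets each had a difference of -0.28, with limma adjusted p = 0.310 and 0.308 over all probe sets. In both, every OVE26 array was below every FVB array, by 10.75 against 10.77 and by 9.65 against 9.67 at the nearest points. The 3 probe sets were designed from the same expressed sequence and are not independent readings.

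Tjp1 encodes ZO-1, a scaffold of tight junctions throughout epithelium and endothelium that also binds the tails of Neph proteins. It read 11.90, 11.78, 11.77, 11.87 and 11.60 in OVE26 arrays 1 to 5 and 12.00, 11.84, 11.95 and 11.96 in FVB arrays 1 to 4. OVE26 1 and OVE26 4 lay above FVB 2, and the other OVE26 arrays lay below all 4. The difference was -0.15 (SE 0.10, 95% interval -0.37 to 0.06, limma adjusted p = 0.512).

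Ptpro encodes GLEPP1, a receptor tyrosine phosphatase of the apical foot process membrane. The brighter of its probe sets read 11.61, 11.59, 11.24, 11.12 and 11.27 in OVE26 arrays 1 to 5 and 11.68, 11.49, 11.65 and 11.57 in FVB arrays 1 to 4. OVE26 1 and OVE26 2 were at the FVB level, and OVE26 3, 4 and 5 were below it. The difference was -0.23 (SE 0.13, 95% interval -0.52 to 0.05, limma adjusted p = 0.435). The dimmer probe set gave -0.53 (SE 0.22, 95% interval -1.02 to -0.04, limma adjusted p = 0.326 over all probe sets). There OVE26 1, at 10.39, was the second highest of the 9 arrays, and the other OVE26 arrays lay between 9.32 and 9.69, below the FVB minimum of 9.98.

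Podxl encodes podocalyxin, the negatively charged sialomucin that coats the foot processes and is also present on endothelium. The brighter probe set read 13.06, 13.00, 12.98, 12.97 and 12.95 in OVE26 arrays 1 to 5 and 13.10, 13.08, 13.13 and 13.11 in FVB arrays 1 to 4. Every OVE26 array lay below every FVB array, as in 2.62% of all genes, yet the difference was only -0.11 (SE 0.08, 95% interval -0.30 to 0.07, limma adjusted p = 0.574). The interval is wider than the spread of these arrays would give alone, because limma draws each gene's variance toward that of all genes. The dimmer probe set had a difference of -0.24 (SE 0.13, limma adjusted p = 0.454 over all probe sets), with OVE26 arrays from 11.68 to 12.19 and FVB arrays from 12.02 to 12.31. Over the 12 probe sets, 3 had all OVE26 arrays below all FVB arrays, beside 2.78% of all probe sets.

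**Figure D2:**
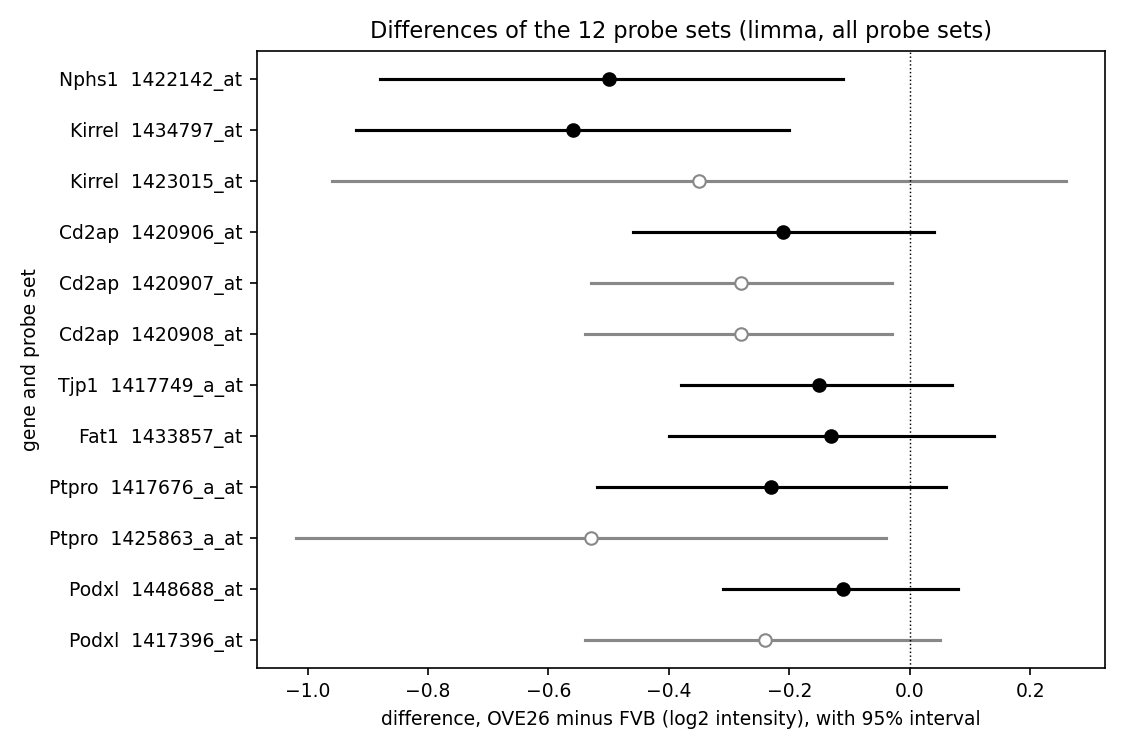
Difference between OVE26 and FVB arrays in log2 intensity (horizontal axis) with its 95% interval for each of the 12 probe sets, from the fit over all probe sets. Filled points are the probe sets used for the gene. All 12 points lie to the left of 0, and the intervals of 5 probe sets, among them that of Nphs1 and the brighter one of Kirrel, do not reach 0, without correction for the number of tests.

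In 3 of the 4 genes with several probe sets (Cd2ap, Ptpro and Podxl) the brightest one showed the smallest difference, and in Kirrel it showed the largest. When a gene was read by the average of its probe sets, the median of the 7 genes was -0.26 and the lowest adjusted p was 0.186 by limma.

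The identity and makeup of the sorts were read from marker genes that are not among the 9. Podocyte markers, such as the transcription factors Wt1 and Lmx1b, were well expressed, and all 25 measured ones lay above the 25th percentile of gene means in FVB arrays. Their mean log2 intensity was 10.63 to 10.93 in FVB and 10.31 to 10.69 in OVE26 arrays, a mean difference of -0.30, with 22 of the 25 below 0 and 1 called lower (Tdrd5). Read by the brightest probe set, Nphs1 and Kirrel had a difference more negative than this mean and the other 5 slit diaphragm genes did not. Ptpro was more negative too at its dimmer probe set (-0.53) and with the mean of its probe sets (-0.38). Whether any of them differs from the marker mean was not tested singly beyond the centred fit below. In bulk sorts, fewer podocytes and less RNA of these genes per podocyte cannot be told apart.

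Markers of the loop, distal and duct segments, of the parietal epithelium and of macrophages lay mostly above 0, whereas proximal tubule markers did not. The 19 markers of Henle's loop and of the distal and collecting segments averaged 5.63 to 6.87 in FVB and 7.27 to 8.59 in OVE26 arrays, with all 19 differences above 0 and 3 called higher (Fxyd4, Atp6v0d2 and Slc26a4), where 0.473% of all genes were. Scnn1g and Avpr2 were below the 25th percentile in FVB arrays. The 10 parietal epithelial markers averaged 6.35 to 7.19 in FVB and 7.45 to 8.27 in OVE26 arrays, with all 10 differences above 0. Of these, 3 were called higher (the keratins Krt8, Krt18 and Krt19), beside the same 0.473% of all genes. The 17 macrophage markers averaged 4.86 to 5.10 in FVB and 5.10 to 6.29 in OVE26 arrays, with 15 above 0 and 0 called in either direction (limma, 11 at an unadjusted p under 0.05, beside 15.1% of all genes in either direction), and Adgre1, C1qb and C1qc were below the 25th percentile in FVB arrays. Glomerular endothelial markers overlapped, at 8.10 to 8.97 in FVB and 8.10 to 8.98 in OVE26 arrays, with 5 of 13 above 0. So did mesangial and smooth muscle markers, at 7.17 to 7.58 and 7.10 to 7.93. Proximal tubule markers spanned 8.20 to 8.86 in FVB and 6.39 to 9.12 in OVE26 arrays, the lowest being OVE26 2, with a mean difference of -0.23 and 5 of 11 above 0. The 3 red blood cell markers spanned 3.96 to 5.04 and 4.71 to 5.71. The part of these markers in the differences of the slit diaphragm genes was not tested beyond the fits given next.

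**Figure D3:**
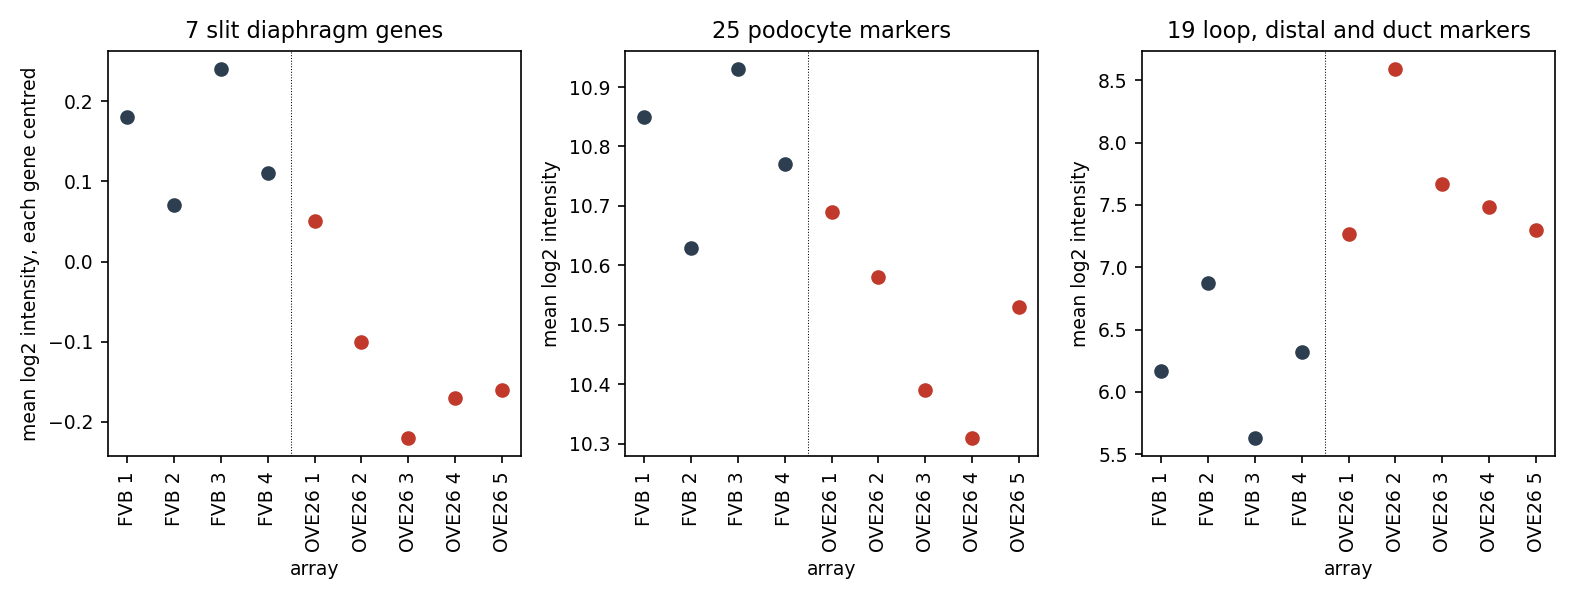
Mean log2 intensity per array of the 7 slit diaphragm genes (each gene centred over the 9 arrays, left), of 25 podocyte markers (middle) and of 19 markers of loop, distal and duct cells (right). FVB 3 is highest in the first pair of panels and lowest in the last, and among OVE26 arrays OVE26 1 is highest in the first pair and lowest in the last.

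Arrays of the same group also differed among themselves. OVE26 1 had the highest OVE26 value of Nphs1, Fat1, Tjp1, Ptpro and Podxl, the highest OVE26 level of podocyte markers (10.69) and the lowest OVE26 level of loop, distal and duct markers (7.27). Among normal arrays, FVB 3 had the highest value of Nphs1, Kirrel and Podxl, with the highest podocyte marker level (10.93) and the lowest loop, distal and duct level (5.63). For Cd2ap its place hung on the probe set. It was the lowest FVB array at the brightest one (12.01), the highest at another (11.06) and below FVB 4 alone at the last (9.85 against 9.91). Read by the brightest probe set, Tjp1, Fat1 and Ptpro were highest in FVB 1, and Cd2ap in FVB 2. The dimmer probe set of Ptpro was highest in FVB 3 (10.52).

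With each array centred on the podocyte markers, the difference of Nphs1 was -0.20 (SE 0.13) and that of Kirrel -0.26 (SE 0.19), while Cd2ap, Tjp1, Fat1, Ptpro and Podxl lay at 0.06 to 0.18 (limma, lowest adjusted p of the 7 genes 0.257). This centring takes the same value from every gene of an array, and it moved the median of all genes from 0.01 to 0.31. That all 7 genes still lay below this median was therefore fixed by construction. With the podocyte score as a covariate the difference of Nphs1 was 0.01 (SE 0.16) and that of Kirrel -0.58 (SE 0.26), and with the loop, distal and duct score they were -0.19 (SE 0.30) and -0.09 (SE 0.24). With the loop, distal and duct score Cd2ap went from -0.21 to -0.44 (SE 0.18, limma adjusted p = 0.580) and the other 4 genes lay between -0.29 and -0.01. With the macrophage score Nphs1 was -0.13 (SE 0.24) and Kirrel -0.72 (SE 0.26, limma adjusted p = 0.259), with Cd2ap at -0.02. The genes thus did not move together: Kirrel was close to its size as deposited with the podocyte score, larger with the macrophage score and smaller with the loop, distal and duct score, and Nphs1 was smaller with each of the 3. These scores differed between the groups, so a covariate of this kind takes up part of the group difference itself.

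The labels give no sex. Xist was below the Y-linked genes in 2 of 5 OVE26 and 3 of 4 FVB arrays (arrays low in Xist) and above them in the rest, so the groups were not balanced. With Xist minus the Y-linked mean as a covariate, the differences were -0.43 for Nphs1 (SE 0.18, limma adjusted p = 0.336) and -0.45 for Kirrel (SE 0.15, limma adjusted p = 0.229). Within the 5 arrays low in Xist they were -0.47 (SE 0.24, limma adjusted p = 0.473) and -0.44 (SE 0.20, limma adjusted p = 0.417). The other 5 genes lay between -0.27 and -0.08. In this setting 0 of the 7 genes had an unadjusted limma p under 0.05, beside 2495 of all 18193 genes in either direction. The arrays high in Xist held only 1 FVB array, and no value was computed within them.

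**Figure D4:**
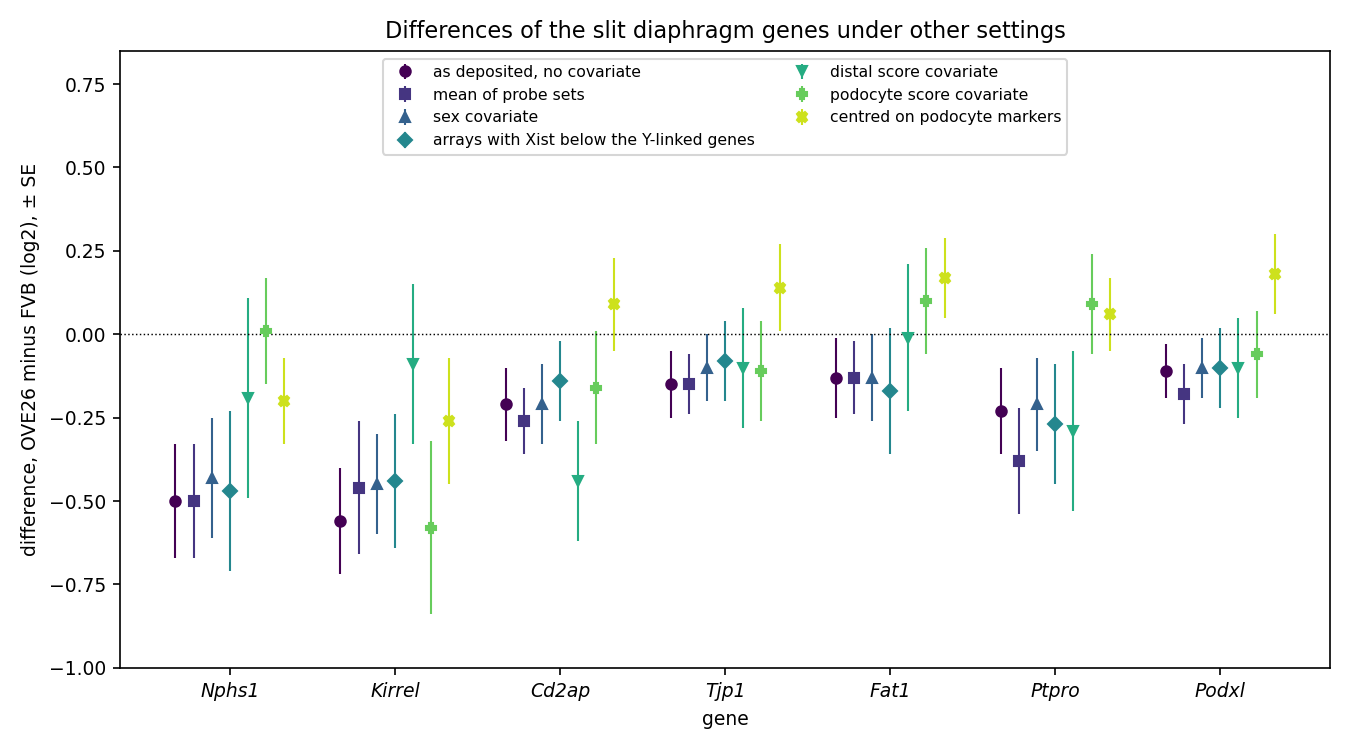
Difference between OVE26 and FVB (log2, vertical axis) with its SE for the 7 genes, as deposited and under 6 other settings. Nphs1 and Kirrel lie lowest as deposited. Nphs1 moves to 0.01 with the podocyte score as a covariate, and 5 genes lie above 0 when arrays are centred on podocyte markers.

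Among the other genes of the junction, 74 were measured in lists of adhesion proteins, signalling partners, scaffolds, endocytic and actin adaptors, podocalyxin linkers and phosphatases. One rose (0.473% of all genes did), 0 fell (0.132%) and 73 did not pass by limma, and the median difference was -0.08. Of the 74, 50 had a difference below 0 (47.4% of all genes) and 13 an unadjusted p under 0.05 (15.1%).

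The gene that rose was Igsf5, which encodes JAM4, a junctional adhesion molecule that binds the scaffold Magi1 and is present in podocytes and in tubule epithelium. It read 6.37, 6.24, 6.94, 6.98 and 6.76 in OVE26 arrays 1 to 5 and 4.58, 5.40, 5.32 and 5.31 in FVB arrays 1 to 4. Every OVE26 array was above every FVB array, and the difference was 1.50 (SE 0.22, limma adjusted p = 0.0244), or 2.83-fold. Igsf5 missed the threshold without OVE26 3, OVE26 5, FVB 1, FVB 3 or FVB 4, with differences from 1.31 to 1.56 and limma adjusted p from 0.0524 to 0.0741. It also missed it with the sex covariate (1.47, adjusted p = 0.0547), the loop, distal and duct score (1.69, adjusted p = 0.427), the podocyte score (1.01, adjusted p = 0.349), the macrophage score (0.93, adjusted p = 0.205) and within the 5 arrays low in Xist (1.60, adjusted p = 0.145). Levels of loop, distal and duct markers were also higher in OVE26 arrays, as given above. Among OVE26 arrays, OVE26 2 had the highest level of these markers (8.59) and the lowest Igsf5 value (6.24). Among FVB arrays, FVB 2 had the highest of both (6.87 and 5.40). Parietal epithelial markers were highest in OVE26 4 (8.27), which had the highest Igsf5 value (6.98). The part of any of these markers in the rise of Igsf5 was not tested further. The other 10 adhesion genes of the list, among them Kirrel3 and the protocadherins Fat2, Fat3 and Fat4, did not pass. Of these Cldn5, a claudin of podocytes and endothelium, had a difference of -0.58 (SE 0.25, limma adjusted p = 0.306).

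Of 19 adaptors, kinases and phosphatases of nephrin signalling, 16 had a difference below 0 (47.4% of all genes) and none passed (0 called by limma, 5 at an unadjusted p under 0.05, beside 15.1% of all genes), with a median of -0.14. Fyn, the kinase that phosphorylates the nephrin tail, read 9.26, 8.88, 8.73, 8.79 and 9.11 in OVE26 arrays 1 to 5 and 9.75, 9.25, 9.75 and 9.43 in FVB arrays 1 to 4. Only OVE26 1 reached the lowest FVB array, and the difference was -0.59 (SE 0.15, limma adjusted p = 0.113). Crkl, an adaptor of the Crk family, had a difference of -0.55 (SE 0.14, limma adjusted p = 0.111). All its OVE26 arrays lay below all FVB arrays, as in 2.62% of all genes. Inppl1, the lipid phosphatase SHIP2, had a difference of -0.45 (SE 0.17, limma adjusted p = 0.240). Read by the brightest probe set, Fyn and Crkl differed by about as much as Nphs1 and Kirrel, and like them did not pass. With the mean of probe sets Fyn was at -0.51 and Crkl at -0.36.

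Scaffold and polarity genes were centred on 0. Of 17, 9 had a difference below 0 and the median was -0.01, with none called (limma, 1 at an unadjusted p under 0.05), beside the same 47.4% and 15.1% of all genes. The smallest p was that of Tjp3, a relative of Tjp1, at 0.57 (SE 0.19, limma adjusted p = 0.182). Of 17 adaptors of actin and endocytosis, 13 had a difference below 0 (47.4% of all), the median was -0.09 and none passed (limma, 4 at an unadjusted p under 0.05, 15.1% of all). Prkca, a kinase that promotes nephrin endocytosis, had a difference of -0.58 (SE 0.14, limma adjusted p = 0.102). Its OVE26 arrays (8.40 to 9.04) all lay below its FVB arrays (9.16 to 9.39), as in 2.62% of all genes. Dnm2, the dynamin that severs endocytic vesicles, had a difference of -0.35 (SE 0.12, limma adjusted p = 0.210). Its groups were also apart, by 10.47 against 10.48 at the nearest points. Synj1, the phosphatase that uncoats such vesicles, had a difference of -0.29 (SE 0.11, limma adjusted p = 0.232), and its groups met. These values are for the brightest probe set. With the mean of probe sets the differences were smaller, at -0.40 for Prkca, -0.15 for Dnm2 and -0.07 for Synj1.

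Of 8 linkers and relatives of podocalyxin, 5 had a difference below 0 (47.4% of all) and none passed (limma, 1 at an unadjusted p under 0.05, 15.1% of all), with a median of -0.09. Rdx, the radixin that ties membrane proteins to actin, had a difference of -0.28 (SE 0.10, limma adjusted p = 0.208). Its OVE26 arrays all lay below its FVB arrays, as in 2.62% of all genes. The phosphatases related to Ptpro that were measured, Ptprb and Ptprj, lay at -0.19 and -0.06 (limma, lowest adjusted p 0.696).

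The genes whose levels followed Nphs1 most closely over the 9 arrays were Nxph3 (Pearson's r 0.987), Creb3l2 (0.983) and Pld1 (0.979). For Kirrel they were Tshz2 (0.990), Smndc1 (0.963) and Wdfy3 (0.960). These are the highest of 10500 genes at or above the 40th percentile of mean intensity, all read from the same 9 libraries with the difference between groups left in, and they are given as a description. Once the group means were removed, r between Nphs1 and Ptpro, Fat1 and Podxl was 0.746, 0.703 and 0.675, while r between Nphs1 and Kirrel was 0.0863. Kirrel ran from -0.539 (with Cd2ap) to 0.199 (with Tjp1) against the other 6 genes. All of these r are for the brightest probe set of each gene. They were not computed at the other probe sets of Kirrel, Cd2ap, Ptpro and Podxl, where they can differ. At these probe sets, r within groups was thus higher between Nphs1 and the apical genes or Fat1 than between Nphs1 and Kirrel. This describes 9 arrays and was not tested.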

How the data were processed

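RNA of sorted podocytes was amplified and biotin-labelled with a NuGEN kit and read on 9 arrays, per the labels' protocols. RMA and Partek are named in the submitters' processing notes, with no settings or versions. The authors deposited 1 linear intensity per probe set and array, as the range of values shows, and all tests used its log2. Of 45101 probe sets 64 controls were left out, and 34945 carried 1 symbol, 932 several and 9160 none. Each gene was read by its brightest probe set over the 9 arrays.

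The comparison of groups used limma (version 3.58.1, R 4.3.3), with group alone in the model, moderated variances, 2-sided tests and all 9 arrays, and Benjamini-Hochberg adjustment over 18193 genes, or over 45037 probe sets where stated, and a threshold of 0.05. The labels call the samples separate mice; they name no batch or scan date, and the number of arrays limits the precision (median SE of a difference 0.16). Median log2 intensity was 5.07 to 5.15 per array.

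The genes and lists were chosen with earlier results of these data known. All 9 slit diaphragm genes were to be named, then in each list the genes past the threshold and up to 3 with the smallest p, of which 10 with an unadjusted p under 0.05 are described, and the 3 genes most correlated with Nphs1 and with Kirrel. Marker levels are means of log2 intensities, and scores are those means with each gene centred.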

Additional observations from a re-analysis of the deposited data

Results flagged for a closer look

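Among 44 groups of values checked for a single array apart from the rest (the 12 slit diaphragm probe sets and the 10 other genes described, in each group), 1 stood out, where chance gives about 1 in 20. The Igsf5 value of FVB 1, at 4.58, lay below those of the other FVB arrays, the nearest of which was 5.31. Without FVB 1 the Igsf5 difference was 1.31 (limma adjusted p = 0.0524).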

How the results depend on the processing

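Under all 22 alternatives for the gene fit the count of slit diaphragm genes called by limma stayed at 0 at the threshold of 0.05, as did the count of probe sets under each of the 12 alternatives run for them. At a threshold of 0.1 it was 0 with the settings as reported, the only ones in which that threshold was counted, while with array weights the adjusted p of Kirrel was 0.077. Of 154 differences of the 7 genes recomputed, 9 changed sign, all in fits that use podocyte or macrophage markers. With the podocyte score as a covariate these were Nphs1 (0.01), Fat1 (0.10) and Ptpro (0.09), with Cldn5 at 0.19. With the macrophage score it was Ptpro (0.07). Centred on podocyte markers they were Cd2ap (0.09), Tjp1 (0.14), Fat1 (0.17), Ptpro (0.06) and Podxl (0.18), with Synj1 at 0.00 and Rdx at 0.02. That centring raised all genes by its own construction. Without 1 array, the difference of Nphs1 ran from -0.60 to -0.40 (limma adjusted p from 0.133 to 0.428) and that of Kirrel from -0.64 to -0.47 (adjusted p from 0.110 to 0.326). The 3 settings with the macrophage score, the podocyte centring and the arrays low in Xist, and all alternatives for the other junction genes, were chosen after seeing the data.

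The counts over all genes, 86 higher and 24 lower, depended on the setting. Lower genes were 38 with the filter on dim genes and 51 with an intensity trend and robust variance. Counts were 284 and 112 with array weights, 33 and 8 with the sex covariate, 267 and 108 at a threshold of 0.1, and 7 and 3 within the arrays low in Xist. They were 0 and 0 with the loop, distal and duct score (limma, 1513 genes at an unadjusted p under 0.05). The podocyte score left 1 and 0 (1587 genes) and the macrophage score 0 and 1 (2711 genes). Centred on podocyte markers 1528 genes were higher. Without 1 array they ran from 8 to 285 higher and from 0 (2155 genes at an unadjusted p under 0.05, without FVB 3) to 82 lower, the largest counts being without FVB 2. Of the 74 other junction genes 1 passed, against 0 with the replicate block, the sex covariate, each of the 3 scores and the arrays low in Xist, 4 when centred on podocyte markers, and 0 to 2 without 1 array. The cause of these changes was not tested. With the replicate number as a replicate block, counts were 19 higher and 0 lower (limma, 2339 genes at an unadjusted p under 0.05), and Igsf5 stood at 1.48 (adjusted p = 0.0889). The labels do not say whether the numbers pair the mice. The deviations of same-numbered arrays from their group means correlated at 0.129, 0.042, -0.212 and 0.008. Such values cannot show whether mice of the same number were handled together.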
